A study of Mus musculus with 7 samples.

Results

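The glucocorticoid-responsive genes followed here are 10 genes listed by name: Fkbp5, Sgk1, Tsc22d3, Zbtb16, Klf9, Sult1a1, Plin4, Xdh, Ddit4 and Map3k6. All probes annotated to them were taken, which gave 10 probes for 9 of the 10 genes, out of 25697 probes on the array and 16593 named genes. Zbtb16, a zinc finger transcription factor, had no probe under that name in the platform annotation used here and was not analysed. Tsc22d3 had 2 probes, annotated to different transcripts, and each of the other 8 genes had 1.

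RNA came from the hypothalamus of male mice aged 13 weeks on a C57BL/6 background, and all of them carried the BGN knockout label, so no mouse with intact biglycan was compared. The 5 arrays of the DHA group came from knockouts whose diet for about 6 weeks held docosahexaenoic acid (DHA), an omega-3 fatty acid, supplied as 1.2% DHA capsule oil together with 0.5% flaxseed oil. The 2 arrays of the untreated group, replicates 1 and 3, came from knockouts on plain chow, and per the series text another untreated sample had been excluded by the submitters for lying apart. No group received flaxseed oil alone, no label gives the hour of dissection, the handling or a corticosterone level, and no label names the animal behind a sample, so the p-values measure the spread between these samples.

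Glucocorticoids, mainly corticosterone in mice, are released by the adrenal gland under control of the hypothalamus and pituitary. They enter cells, release the glucocorticoid receptor from its chaperones, and the receptor then binds DNA elements and changes transcription of its targets. In brain these targets are induced in glia, vessels and neurons alike, follow the daily corticosterone rhythm, and include genes that feed back on the receptor, such as Fkbp5. Several of them also answer to other signals, among them insulin, osmotic change, hypoxia and fatty acids.

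The DNA element bound by a receptor dimer is an inverted repeat of the half-site AGAACA with 3 free bases in between, written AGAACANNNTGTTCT. It was searched for on both strands in windows from 250 bases before to 50 bases after annotated gene starts (RefSeq sequences, build GRCm38.p6), which were present for 8 of the 10 genes in 15 windows. The full repeat stood in 3 of 32851 windows of all genes (0.0091%), and 1 of these belonged to Sgk1, in 1 of its 6 windows. A shorter form, GNACANNNTGTNC, which the full repeat also contains, stood in 156 windows (0.4749%), among them that window of Sgk1 and the window of Map3k6. The half-site alone, which overlaps the full repeat, stood in 18.9735% of all windows and in 5 of the 15 member windows, those of Sult1a1, Tsc22d3 and Sgk1. Shown are the windows of Sgk1 and Map3k6, which hold the longer forms, and of Sult1a1, the member with the smallest p below. Each runs 5′ to 3′ on the strand of its gene. Capitals mark the full repeat in Sgk1 (chr10:21993640-21993939, plus strand), beginning 189 bases before the start, the shorter form in Map3k6 (chr4:133240568-133240867, plus strand), beginning 181 bases before it, and both half-sites in Sult1a1 (chr7:126676369-126676668, minus strand), beginning 212 and 34 bases before it.
Sgk1: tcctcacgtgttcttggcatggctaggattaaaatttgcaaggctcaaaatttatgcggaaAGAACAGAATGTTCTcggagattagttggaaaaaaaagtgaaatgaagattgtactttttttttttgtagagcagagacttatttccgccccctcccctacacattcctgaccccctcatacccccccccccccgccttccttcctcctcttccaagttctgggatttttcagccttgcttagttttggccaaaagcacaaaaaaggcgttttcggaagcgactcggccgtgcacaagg
Map3k6: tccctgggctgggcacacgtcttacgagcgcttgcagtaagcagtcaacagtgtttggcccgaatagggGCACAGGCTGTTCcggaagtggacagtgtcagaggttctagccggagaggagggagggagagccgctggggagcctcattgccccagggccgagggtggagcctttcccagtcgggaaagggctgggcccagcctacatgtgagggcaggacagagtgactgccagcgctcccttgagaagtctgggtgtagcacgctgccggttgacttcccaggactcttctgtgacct
Sult1a1: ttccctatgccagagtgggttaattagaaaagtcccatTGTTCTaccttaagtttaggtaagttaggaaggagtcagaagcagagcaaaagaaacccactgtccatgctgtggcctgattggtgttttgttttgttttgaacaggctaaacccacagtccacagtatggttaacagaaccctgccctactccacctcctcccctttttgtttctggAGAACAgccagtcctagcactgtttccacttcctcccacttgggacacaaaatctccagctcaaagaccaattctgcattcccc
These matches describe letters, not bound sites, and receptor-bound elements of several members are known to lie outside such windows.

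The comparison asks how expression in the hypothalamus of Bgn knockouts differed with the DHA chow. Of the 9 genes, 8 were higher with DHA by the brightest probe, where 48.2% of the 10448 genes tested were higher (47% of all tested probes), and the median member difference was 0.37 log2 (1.29-fold), against -0.01 over all genes. Sult1a1, Plin4 and Xdh had the largest differences as reported, 1.67-fold to 2.01-fold. For Xdh this place rests on untreated replicate 3, where it was not detected, and on the background correction: its 0.86 log2 was 0.44 without that array, below Map3k6 (0.65) and Sgk1 (0.47), and 0.25 without background correction, below Tsc22d3 (0.36) and Sgk1 (0.30). The classic targets Fkbp5, Sgk1 and Tsc22d3 lay close together, between 1.24-fold and 1.29-fold. Ddit4 and Klf9 were at 1.09-fold and 0.956-fold.

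None of the 10 member probes passed the threshold of 0.05 on the p adjusted over all 15284 probes tested (limma with Benjamini-Hochberg adjustment), and neither did any other probe (0%). At an unadjusted limma p under 0.05 there were 3 member probes, those of Sult1a1, Plin4 and Xdh, all higher, and 5.38% of all genes (5.18% of probes) were higher at that level. In Fkbp5, Sult1a1 and Plin4, all 5 DHA arrays lay above both untreated arrays, a pattern seen in 8.65% of all genes (7.89% of probes). In no member were all 5 DHA arrays below both untreated arrays (0 of 9 genes), which held for 8.79% of all genes. The members were listed with earlier results of these data known, so these counts describe them and carry no test of their own.

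**Figure D1:**
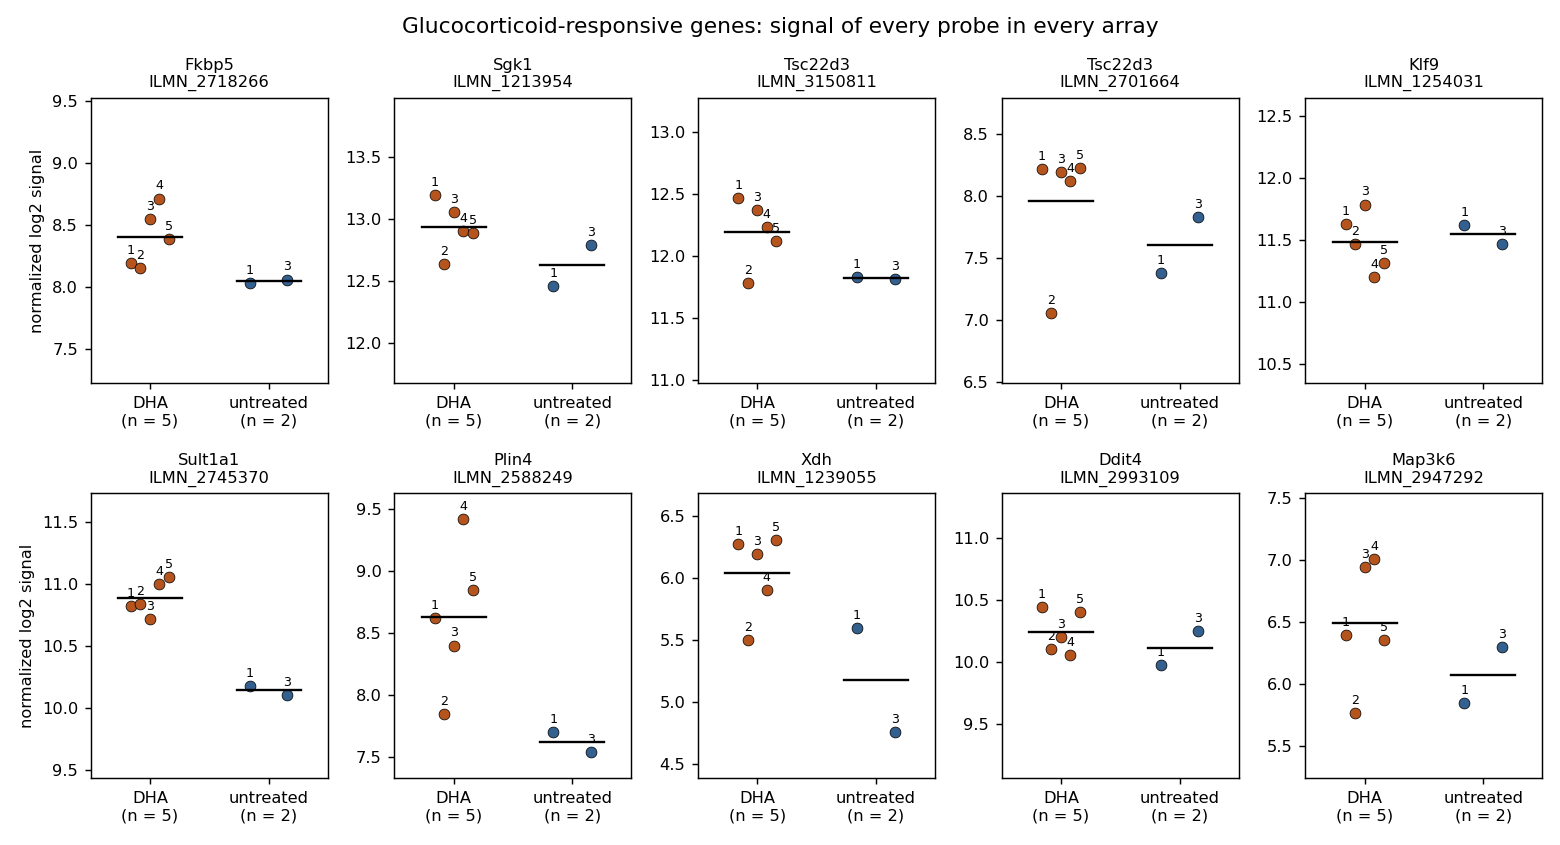
Normalized log2 signal (y axis, each panel spanning the same log2 range) of all 10 member probes in the DHA arrays (left, 5 points) and the untreated arrays (right, 2 points). Digits are replicate numbers and bars are group means. DHA replicate 2 is the lowest DHA point in 7 of the 10 panels, and the groups do not overlap for Fkbp5, Sult1a1 and Plin4.

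Fkbp5 encodes a co-chaperone that lowers the affinity of the glucocorticoid receptor for its hormone, and it is induced by that receptor, which makes it a common readout of glucocorticoid action. Its unnormalized signal was 470.0, 414.6, 509.7, 576.0 and 454.0 in the DHA replicates 1 to 5, against 361.4 and 375.1 in the untreated replicates 1 and 3, and the probe had a detection p of 0 on all 7 arrays. After background correction and normalization the log2 signals were 8.20, 8.15, 8.55, 8.71 and 8.39 with DHA and 8.04 and 8.06 in the untreated arrays. Every DHA array was above both untreated arrays, although DHA replicates 1 and 2 were so by little, and the gap between the groups was 0.09. The difference was 0.35 log2 (SE 0.16, 95% interval -0.02 to 0.73, limma adjusted p 0.509). The interval reaches from 0.986-fold to 1.65-fold.

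Sgk1, a kinase of ion channel and transporter control that is induced within hours by glucocorticoids, was measured by a bright probe. Its log2 signals were 13.19, 12.64, 13.06, 12.91 and 12.89 with DHA and 12.46 and 12.79 in the untreated arrays. The groups overlapped, since DHA replicate 2 lay between the untreated arrays and the other 4 DHA arrays lay above both. The difference was 0.31 log2 (SE 0.16, 95% interval -0.06 to 0.68, limma adjusted p 0.541). Its size depended on which untreated array was kept, at 0.15 without untreated replicate 1 and 0.47 without untreated replicate 3. The window shown above with the full receptor repeat belongs to this gene, and the transcript start used in these samples was not measured.

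Tsc22d3 encodes GILZ, a leucine zipper protein that carries part of the anti-inflammatory action of glucocorticoids. On its brighter probe (ILMN_3150811) the log2 signals were 12.47, 11.78, 12.37, 12.23 and 12.12 with DHA and 11.84 and 11.82 in the untreated arrays. Here DHA replicate 2 was the lowest of all 7 arrays, and the other 4 DHA arrays stood above both untreated ones. The difference was 0.37 log2 (SE 0.18, 95% interval -0.04 to 0.78, limma adjusted p 0.526).

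The second Tsc22d3 probe (ILMN_2701664) was dimmer and gave 8.21, 7.06, 8.19, 8.12 and 8.22 with DHA, against 7.38 and 7.83 in the untreated arrays. As on the brighter probe, DHA replicate 2 lay below both untreated arrays and the other 4 DHA arrays lay above them. The second probe had those 4 closer together and the untreated arrays farther apart. Its difference of 0.36 log2 was close to that of the brighter probe with a larger error (SE 0.33, limma adjusted p 0.736).

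The DHA arrays fell in the same order on the Sgk1 probe and the brighter Tsc22d3 probe: replicate 1 was highest, then 3, 4, 5 and 2. The second Tsc22d3 probe put the DHA arrays in another order, with replicate 5 highest, then 1, 3, 4 and 2. Fkbp5 ordered them differently, with replicate 4 highest and replicate 1 next to lowest. The classic targets shared their lowest DHA array but not the order of the rest. Their differences, close together as reported, were 0.34, 0.15 and 0.38 for Fkbp5, Sgk1 and Tsc22d3 without untreated replicate 1. They were 0.33, 0.50 and 0.60 with the replicate number as a block. The block rests on replicates 1 and 3 of both groups, so DHA replicates 2, 4 and 5 do not enter those values.

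Klf9 and Zbtb16 stand for the transcription factors among the members, and of these only Klf9 was measured. Klf9, a Krüppel-like factor induced in neurons by glucocorticoids and thyroid hormone, gave 11.63, 11.47, 11.79, 11.21 and 11.32 with DHA, against 11.62 and 11.47 in the untreated arrays. The DHA arrays lay on both sides of the untreated ones. The difference was -0.06 log2 (SE 0.16, 95% interval -0.44 to 0.31, limma adjusted p 0.911), so a change of up to 1.24-fold upward lies within the interval.

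Ddit4 encodes REDD1, which restrains mTOR signalling under hypoxia, energy shortage and glucocorticoids. It gave 10.45, 10.11, 10.20, 10.06 and 10.40 with DHA and 9.98 and 10.25 in the untreated arrays. Only DHA replicates 1 and 5 lay above both untreated arrays. The difference was 0.13 log2 (SE 0.14, 95% interval -0.20 to 0.46, limma adjusted p 0.785). Leaving out untreated replicate 1 brought it to -0.01.

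Map3k6, a stress-activated kinase of the MAP kinase cascade, was dim, with unnormalized signals of 185.4 to 266.1 with DHA and 177.3 and 201.7 in the untreated arrays, and was detected on all 7. Its log2 signals were 6.40, 5.77, 6.94, 7.01 and 6.35 with DHA and 5.84 and 6.30 in the untreated arrays. The DHA arrays spread over more than 1 log2, with replicate 2 again lowest and below both untreated arrays. The difference was 0.42 log2 (SE 0.33, 95% interval -0.33 to 1.18, limma adjusted p 0.686). It was 0.17 without background correction and on the authors' deposited values, 0.20 without untreated replicate 1 and 0.65 without untreated replicate 3.

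Sult1a1, a cytosolic sulfotransferase that conjugates phenols, catechols and drugs, gave the smallest p of the members. Its unnormalized signal was 2163, 1944, 1798, 2307 and 2192 in the DHA replicates 1 to 5, against 1190.5 and 1173 in the untreated replicates 1 and 3. The log2 signals were 10.83, 10.84, 10.72, 11.00 and 11.06 with DHA and 10.18 and 10.11 in the untreated arrays. Both groups were tight and lay 0.53 log2 apart at their nearest arrays, DHA replicate 3 and untreated replicate 1. Unlike in most members, DHA replicate 2 was not the lowest here. The difference was 0.74 log2 (SE 0.12, 95% interval 0.48 to 1.01), or 1.67-fold.

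With a limma adjusted p of 0.117, Sult1a1 did not pass, although it stood at rank 20 by p among 10448 genes. It passed on the authors' deposited values (0.68 log2, limma adjusted p 0.0305), without background correction (0.68, limma adjusted p 0.033) and when limma used robust variances with a trend on intensity (0.74, limma adjusted p 0.00389). No other member probe passed under any alternative run.

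Plin4 coats lipid droplets in adipocytes and muscle. Its log2 signals were 8.62, 7.85, 8.40, 9.42 and 8.84 with DHA and 7.70 and 7.54 in the untreated arrays. All DHA arrays were above both untreated arrays, but replicate 2 by only 0.15, and the DHA arrays spread over more than 1.5 log2. The difference was 2.01-fold (SE 0.35 log2, 95% interval 0.18 to 1.82 log2, limma adjusted p 0.417).

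Xdh, the xanthine dehydrogenase of purine breakdown, was the dimmest member. It had a detection p of 0.0213 in DHA replicate 2, at most 0.00125 in the other DHA arrays, 0.01 in untreated replicate 1 and 0.198 in untreated replicate 3, where it was not detected. The log2 signals were 6.28, 5.50, 6.19, 5.90 and 6.31 with DHA and 5.60 and 4.76 in the untreated arrays. DHA replicate 2 lay between the untreated arrays and the other 4 lay above them. The difference was 0.86 log2 (SE 0.28, 95% interval 0.21 to 1.51, limma adjusted p 0.385). It shrank to 0.25 without background correction and on the authors' deposited values and to 0.44 with normexp on the signals and an offset of 50, and it was 0.44 without untreated replicate 3 and 1.29 without untreated replicate 1.

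**Figure D2:**
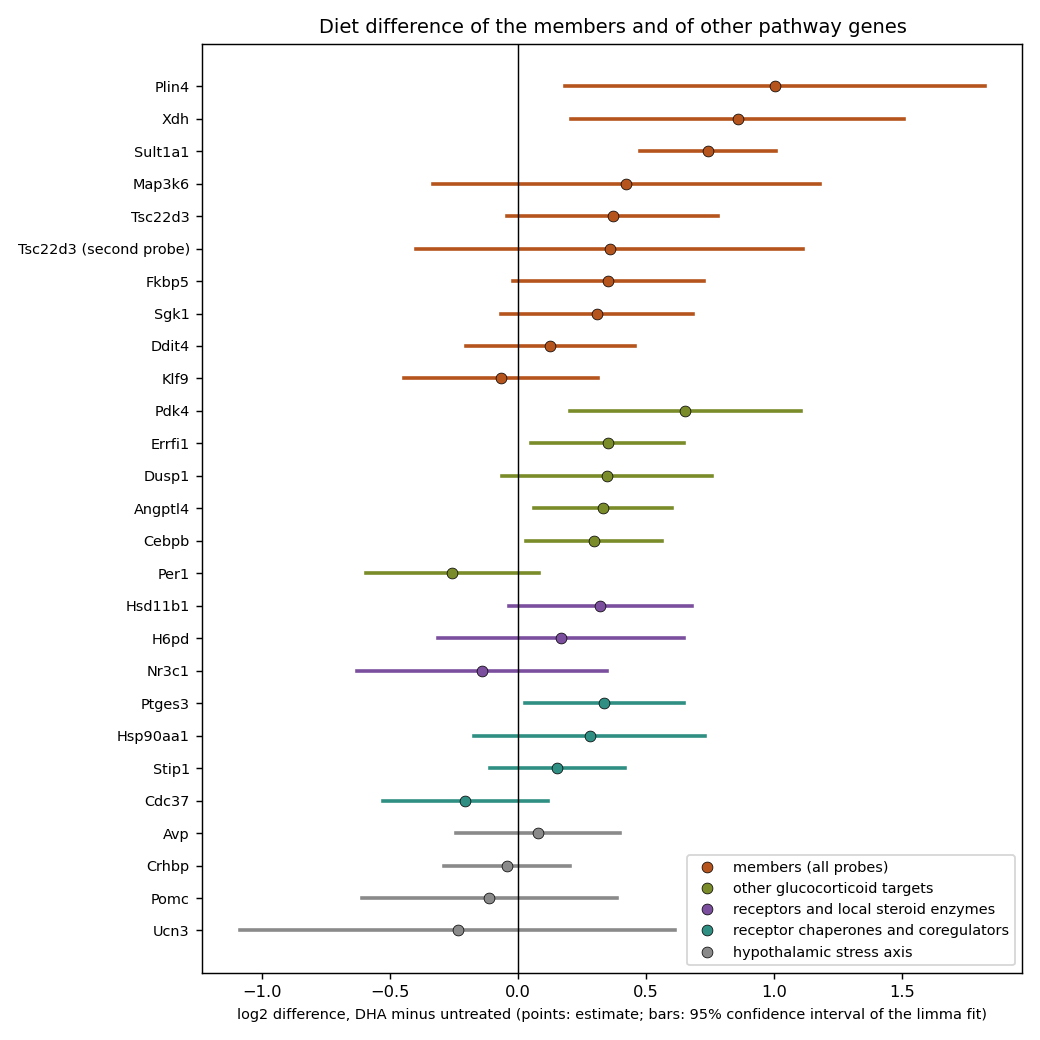
Log2 difference, DHA minus untreated (x axis), with 95% confidence intervals of the limma fit, for all member probes (top) and for the named genes of 4 further lists (y axis). The intervals of Sult1a1, Plin4 and Xdh lie above 0 before adjustment over all probes, while those of Fkbp5, Sgk1 and both Tsc22d3 probes include 0.

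DHA replicate 2 was the lowest DHA array for 7 of the 10 member probes, a place it held in 20% of all 15284 probes tested. Averaged over the 9 genes, the member log2 signal was 9.78, 9.35, 9.80, 9.83 and 9.74 in the DHA replicates 1 to 5, against 9.25 and 9.23 in the untreated replicates 1 and 3. DHA replicate 2 therefore lay nearer to the untreated arrays than to the rest of its group. The blood markers also set this array apart (2 of 3 tested), with a summed normalized signal of 29866 in DHA replicate 2 and 12015 to 16736 in the other DHA arrays, against 24348 and 18277 in the untreated arrays. The 7 tested immediate early genes of 8 are induced by neuronal activity. Their summed signal was 7304 in DHA replicate 2 and 4606 to 6585 in the other DHA arrays, against 7203 and 6097 in the untreated arrays. Their mean log2 signal was instead highest in DHA replicate 5 (8.63), with 8.43 in DHA replicate 2 and 8.22 and 8.01 in the untreated arrays. On both lists the untreated arrays overlapped the DHA arrays, and the part of blood or of neuronal activity in the member values was not tested. Without DHA replicate 2 the median member difference was 0.48, and over the 7 single-array omissions it lay between 0.32 and 0.48. In these runs 8 or 9 of 9 genes were higher, where 47.8% to 49.4% of all genes were higher.

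**Figure D3:**
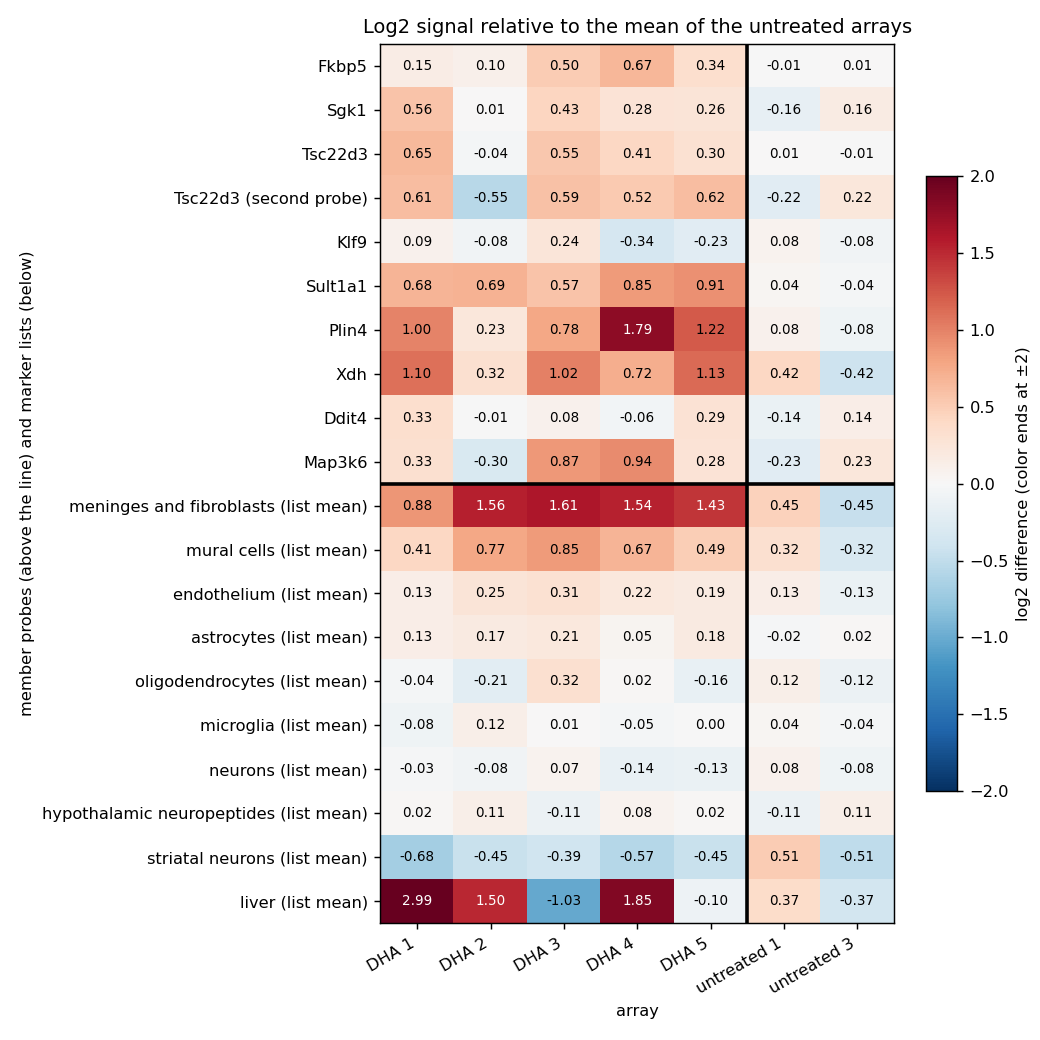
Log2 signal of each member probe (rows above the line) and mean log2 signal of each marker list (rows below it) in every array (columns), each relative to the mean of the untreated arrays. DHA replicate 2 is pale across most member rows but as high as DHA replicates 3 to 5 for the meninges and fibroblast list.

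Other glucocorticoid targets were taken as a list of 21 genes, of which 18 were tested. Of these 18, 12 were higher with DHA (48.2% of all genes were) and 6 lower, and the median was 0.11 log2. After adjustment 0 passed, while 5 had an unadjusted limma p under 0.05, all higher (5.38% of all genes). The members' median of 0.37 was thus above that of this wider list, and the difference between the lists was not tested. In 6 of the 18 genes all DHA arrays were above both untreated arrays (8.65% of all genes), and in 1, Per1, all were below (8.79%).

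Pdk4, a kinase that holds back pyruvate oxidation in fasting, differed by 0.65 log2 (SE 0.19, limma adjusted p 0.349), with 8.49, 8.06, 8.75, 8.60 and 8.21 with DHA and 7.63 and 7.90 in the untreated arrays. As in the members, DHA replicate 2 was lowest of its group, but here it stayed above both untreated arrays. Errfi1, an inhibitor of epidermal growth factor receptor signalling, differed by 0.35 (SE 0.13, limma adjusted p 0.437). The lipoprotein lipase inhibitor Angptl4, which also answers to fatty acids through PPAR receptors, differed by 0.33 (SE 0.12, limma adjusted p 0.412). The transcription factor Cebpb differed by 0.30 (SE 0.11, limma adjusted p 0.455), and the phosphatase Dusp1, which shuts down MAP kinases, by 0.35 (SE 0.18, limma adjusted p 0.536). In each of these 5 genes every DHA array lay above both untreated arrays, as in 8.65% of all genes. Pdk4, Errfi1, Angptl4 and Cebpb were named for the smallest p in the list, so their separation partly follows from that choice. Dusp1 did not have an unadjusted limma p under 0.05. Cdkn1a, not named by that rule, did (0.47 log2 on its brightest probe), and its groups overlapped on every probe.

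Per1, a clock gene with a receptor element in its promoter in several mammals, went the other way. Its brighter probe gave 10.08, 9.92, 10.08, 9.93 and 9.59 with DHA and 10.24 and 10.11 in the untreated arrays, a difference of -0.26 log2 (SE 0.15, limma adjusted p 0.578). The other Per1 probe differed by -0.20 (SE 0.11), and there the groups overlapped.

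Of the receptor and the enzymes that set local hormone levels, 3 of 5 genes were tested. Nr3c1, the glucocorticoid receptor, had a single probe that was detected in 1 of 5 DHA arrays and 1 of 2 untreated arrays. Its difference of -0.14 log2 (SE 0.21, limma adjusted p 0.839) thus rests on signals near background. It was -0.41 without untreated replicate 3 and -0.06 without DHA replicate 5. Without DHA replicate 1 or untreated replicate 1, where it was detected, the probe did not meet the detection filter and was not tested. Nr3c2 had no probe under that name, and the probe of Hsd11b2, which inactivates corticosterone, was detected in 0 of 7 arrays. Hsd11b1, the reductase that regenerates active corticosterone inside cells, was bright on 3 probes. Its brightest probe gave 10.99, 10.71, 10.74, 11.25 and 10.80 with DHA and 10.61 and 10.54 in the untreated arrays. All DHA arrays thus lay above both untreated arrays there, as in 8.65% of all genes. The difference was 0.32 log2 (SE 0.15, limma adjusted p 0.526), and the other tested probes differed by 0.29 and 0.15. The groups were also apart on the probe at 0.29. They overlapped on the probe at 0.15, where DHA replicate 2 lay below both untreated arrays. H6pd, which supplies the cofactor of Hsd11b1, differed by 0.17 (SE 0.21, limma adjusted p 0.804).

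Receptor chaperones and coregulators were tested for 10 of 16 genes, with 6 higher (48.2% of all genes were), 4 lower and a median of 0.04 log2. Ptges3, the p23 co-chaperone that steadies the hormone-binding state, differed by 0.34 (SE 0.13, limma adjusted p 0.461). Hsp90aa1, the inducible cytosolic form of HSP90, differed by 0.28 (SE 0.19, limma adjusted p 0.648), the scaffold Stip1 by 0.15 (SE 0.11, limma adjusted p 0.671) and the kinase co-chaperone Cdc37 by -0.20 (SE 0.14, limma adjusted p 0.644). Single untreated arrays moved these values: without untreated replicate 1 Ptges3 was at 0.15, Hsp90aa1 at 0.17 and Cdc37 at -0.34, and without untreated replicate 3 Ptges3 was at 0.53 and Cdc37 at -0.07. None of the 10 passed (0 of 10). At an unadjusted limma p under 0.05 there was 1, Ptges3, and 5.38% of all genes were higher at that level.

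The hypothalamic stress axis was tested for 6 of 8 genes, of which 1 was higher (48.2% of all genes were) and 5 were lower. The median was -0.06 log2, with 0 at an unadjusted limma p under 0.05. Crh, the releasing hormone that starts the axis, was detected in 0 of 7 arrays on its only probe, which sets no level for it. Avp, the peptide that acts with it on the pituitary, differed by 0.08 (SE 0.14, limma adjusted p 0.862), Pomc, the precursor of the adrenal-stimulating hormone and of melanocortins, by -0.11 (SE 0.21, limma adjusted p 0.878), the urocortin Ucn3 by -0.24 (SE 0.37, limma adjusted p 0.847) and the binding protein Crhbp by -0.04 (SE 0.11, limma adjusted p 0.905). The directions of Avp, Pomc and Crhbp changed with single arrays or with scaling, and Ucn3 was at -0.49 without DHA replicate 5 and -0.11 without DHA replicate 4.

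The dissected tissue carried the transcripts of its label, since 10 of 12 hypothalamic neuropeptides were tested and their summed normalized signal was 87105 to 93437 with DHA and 86962 and 95032 in the untreated arrays. Every DHA array was brighter at the median (174.5 to 189.5, against 167.4 and 173.2) and detected more probes (14251 to 14534, against 13970 and 13873). Markers of several other cell types were mostly higher with DHA beside the members, where 48.2% of all genes were higher. All 14 tested meninges and fibroblast markers of 16 were higher with DHA, and their summed signal was 20807 to 32194 with DHA, against 14819 and 7413 in untreated replicates 1 and 3. For mural cells 7 of 8 markers were higher, with sums of 6179 to 10205 against 5419 and 2736. For astrocytes 8 of 10 markers were higher, with a median of 0.19 log2. In 4 of the 10 all DHA arrays lay above both untreated arrays (8.65% of all genes). Their mean log2 signal was 9.72 to 9.88 with DHA, against 9.65 and 9.69 in the untreated arrays. Their sums overlapped, at 39024 to 41327 with DHA against 39244 and 37089 in untreated replicates 1 and 3. For endothelium 8 of 9 tested markers of 13 were higher, with sums of 7464 to 8893 against 7366 and 6907. Fewer were higher for neurons (2 of 7 tested), microglia (2 of 8) and oligodendrocytes (4 of 9), with medians of -0.03, -0.01 and -0.06 log2. Col1a2 and Col3a1 among the first list and Kdr and Abcb1a among the endothelial list were detected on no array. The meninges list was lowest, among the DHA arrays, in replicate 1, with a mean log2 signal of 8.28. It stood at 8.96 in replicate 2, the array where the members were lowest. The endothelial sum was lowest of the DHA arrays in replicate 2 (7464), but the endothelial mean log2 signal was lowest in replicate 1 (8.77). Liver markers, tested for 6 of 9 genes and all 6 higher, had sums of 474.5 to 7272 with DHA and 1285 and 856.5 in the untreated arrays, highest in DHA replicate 1, and Alb and Fabp1 were detected on no array. Of 7 tested striatal markers 0 were higher with DHA, with a median of -0.53 log2. Their sum was higher in untreated replicate 1 (9225) than in untreated replicate 3 (4236) and the DHA arrays (3755 to 4521). For choroid plexus 2 of 3 tested markers of 7 were higher, with a median of 0.60 log2. Their sums overlapped, at 1595 to 4521 with DHA against 2498 and 1410 in untreated replicates 1 and 3. The part of these cell types in the member differences was not tested, and in tissue RNA more cells of a type and more RNA per cell cannot be told apart.

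**Figure D4:**
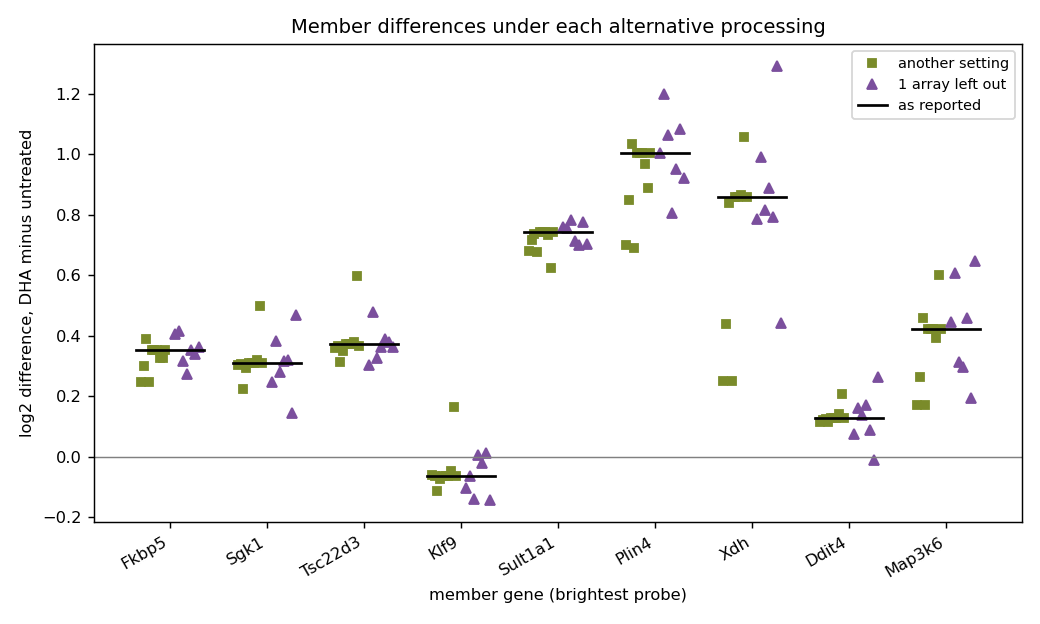
Log2 difference, DHA minus untreated (y axis), of the brightest probe of each member gene (x axis) as reported (line), under other processing settings (squares) and with 1 array left out (triangles). Sult1a1 stays between 0.62 and 0.78, Xdh ranges from 0.25 to 1.29, and Klf9 lies on both sides of 0.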

How the data were processed

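Biotin-labelled hypothalamus RNA of 7 samples was hybridized to Illumina bead arrays, per the labels. The table the authors deposited holds an unnormalized signal intensity and a detection p-value per probe and array, per the file headers. A further 2 per-sample columns fit none of the labels and stayed out. A second table the authors deposited holds normalized intensity values; lumi 2.10.0 and R 2.15.0 are listed, per the submitters' processing notes, without saying what each did. It served as an alternative.

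The unnormalized signals were corrected for background by limma's nec, a normexp fit that estimates background from the detection p-values (offset 16), quantile-normalized and put on the log2 scale in R 4.3.3 with limma 3.58.1. The offset shrinks differences of dim probes, and quantile normalization removes differences in total RNA. The platform annotation gave 1 symbol for 23978 of 25697 probes, none for 1719 and several for 0; symbols were updated through gene identifiers. Probes needed detection at p under 0.05 on 2 or more arrays, which left 15284 covering 10448 named genes. The diets were compared with lmFit and eBayes (limma, two-sided), p-values were adjusted by Benjamini-Hochberg over all 15284 probes with a threshold of 0.05, after a check on simulated data. All differences are DHA minus untreated, and their intervals are 95% intervals of that fit. With 7 arrays, precision is limited by their number.

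The brightest probe stands for a gene. Named were all members, up to 4 genes with the smallest p from each pathway list and a few further genes (Nr3c1, Nr3c2, Hsd11b1, Crh, Per1, Pdk4, Dusp1). The members, lists and tests were chosen with earlier results of these data known. Promoter sequences are from RefSeq (GRCm38.p6); the files name no build for the probes, so no probe positions are printed. Alternatives were other background corrections, scaling, detection filters, variance models, the replicate number as a block, leaving out each array and averaging the probes of a gene.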

Additional observations from a re-analysis of the deposited data

Results flagged for a closer look

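Among 27 probes of members and named genes, 2 had a DHA array standing apart from the other 4 by Dixon's criterion at 95%, and chance alone gives about 1 in 20. The second Tsc22d3 probe was lowest in DHA replicate 2, at 7.06 log2 against 8.12 in the next lowest array. Avp was lowest in DHA replicate 1, at 13.05 log2 against 13.38 in the next. The causes were not tested.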

How the results depend on the processing

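The median member difference of 0.37 log2 kept its sign under all 17 alternatives run, between 0.25 and 0.60. It was farthest from 0.37 with the replicate number as a block (0.60). That run rests on replicates 1 and 3 of both groups, since DHA replicates 2, 4 and 5 have no untreated sample of their number. Leaving out 1 array gave 0.32 to 0.48. The count of member probes past the threshold was 0 as reported and when any 1 array was left out (lowest 0, highest 0), and 1 (Sult1a1) without background correction, on the authors' deposited values and when limma used robust variances with a trend on intensity. Over all probes the count was 0 as reported, 12 on the deposited values and without background correction, 1 with normexp and an offset of 50, 52 with trend and robust variances, and 0 to 3 with 1 array left out, the 3 without untreated replicate 3.

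With the replicate number as a block 0 probes passed, and the smallest limma adjusted p was 0.623. The labels name no pairing of same-numbered samples. Deviations of these samples from the group means correlated at 0.00336 for replicate 1 and 0.0339 for replicate 3 (across 15284 probes). The 2 untreated arrays deviate from their mean by equal and opposite amounts, so these are not separate checks. Whether same-numbered samples shared a batch was not tested. The block, which rests on replicates 1 and 3 only, turned the direction of Klf9 (0.16), Nr3c1 (0.0465), Avp (-0.0584) and Crhbp (0.00500). A common median in place of quantile normalization turned that of Avp (-0.0201). With 1 array left out, differences on both sides of 0 were seen for Klf9 (-0.144 to 0.0122, above 0 without DHA replicate 4 or untreated replicate 1), Ddit4 (-0.00967 to 0.263) and Avp (-0.0292 to 0.188), both below 0 without untreated replicate 1, and for H6pd (-0.0304 to 0.373), Pomc (-0.363 to 0.136) and Crhbp (-0.114 to 0.0270), which turned without untreated replicate 3. The causes were not tested. Fkbp5, Sgk1, Tsc22d3, Sult1a1, Plin4, Xdh and Map3k6 turned under none of the alternatives. Dim probes (Xdh, Map3k6, Nr3c1) are limited by their signal over background.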
